A study of Mus musculus with 16 samples.

Results

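The genes examined here encode the subunits of respiratory complex I that are made in the nucleus. They were taken as the genes whose symbol is on a list of 35 Ndufa, Ndufab, Ndufb, Ndufc, Ndufs and Ndufv symbols, and all 35 were found among the 53090 genes in the files. RNA was sequenced from 16 libraries of mouse CD4+ T cells in 4 groups of 4. The cells came from spleens of C57BL/6 mice, either wild type (WT) or lacking the gene Aim2 in the whole animal (Aim2-/-), which encodes a protein that senses double-stranded DNA in the cytosol. From each genotype, naïve CD4+ T cells (Tn) were taken without culture, and a further set was cultured for 2 days with antibodies to CD3 and CD28, TGF-beta and IL-2, conditions that drive cells toward regulatory T cells (Treg). The age of the mice was not given in the sources used here, and nothing states whether Tn and Treg libraries came from the same mice. The Treg libraries hold all cells of the culture. They can be compared only with cells that were not cultured, so culture time, activation and the cytokines cannot be told apart. P-values below measure the spread between these libraries.

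Complex I is the L-shaped entry point of the mitochondrial electron transport chain. It oxidises NADH, passes the electrons along a row of iron-sulphur clusters to ubiquinone and pumps protons across the inner membrane. The arm that reaches into the matrix carries the flavin and the iron-sulphur clusters, and the membrane arm holds the proton pumps, which are encoded in mitochondrial DNA. T cells are known to expand their mitochondria and raise their respiration when activated, and Treg cells are known to rely on oxidative phosphorylation. The 10 members named Ndufs or Ndufv include 6 of the conserved catalytic core (Ndufs1, Ndufs3, Ndufs7, Ndufs8, Ndufv1 and Ndufv2) and 4 supernumerary subunits (Ndufs4, Ndufs5, Ndufs6 and Ndufv3). The other 25, named Ndufa, Ndufab, Ndufb or Ndufc, are all supernumerary, that is, subunits outside the conserved catalytic core. By position, 15 members lie in the matrix arm, 19 in the membrane arm, and Ndufab1 has a copy in each.

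Levels are given as CPM, counts relative to the library's total, after scaling by TMM factors (edgeR's correction for composition). The libraries held between 22516424 and 34533316 counts, and every member passed the filter on low counts in every comparison. Aim2 read 37.9, 36.9, 32.3 and 33.2 CPM in WT Tn and 9.26, 6.77, 6.61 and 6.99 CPM in Aim2-/- Tn, and 35.7, 40.8, 43.3 and 39.96 CPM in WT Treg against 10.8, 9.95, 8.86 and 7.17 CPM in Aim2-/- Treg, so every library stood on the side its label gives. The summed level of 4 CD4 T cell markers was 1817 CPM or more in every Tn library and 833 CPM or more in every Treg library, with none of the markers at 0 in any group. The Treg markers (Foxp3, Il2ra, Ctla4 and Ikzf2) summed to between 23.3 and 88.6 CPM in WT Tn and between 1731 and 2176 CPM in WT Treg. B cell markers stayed at or under 2.20 CPM, myeloid markers at or under 8.21 CPM and CD8 markers at or under 12.2 CPM in all libraries. Replicates of a group fell partly into pairs, for which the labels used here name no batch. In WT Tn the chi-square of the counts, per gene, was 13.5 between replicates 1 and 2 and 11.5 between 3 and 4, against 73.3 to 94.2 across these pairs, and in Aim2-/- Treg it was 10.3 and 13.5 against 21.6 to 49.5. The other groups did not divide in this way, with 21.9 to 62.9 over all pairs of Aim2-/- Tn and 11.7 to 40.5 over those of WT Treg.

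Among naïve WT cells the members differed widely in level. Per kilobase of transcript, which allows genes to be compared, the 22 members with whole counts in every library ran from 11.1 CPM per kb for Ndufc1 to 121 CPM per kb for Ndufa6, a ratio of 10.9, with a median of 41.5. After culture the same 22 genes ran from 25.6 CPM per kb for Ndufv3 to 119 CPM per kb for Ndufb7, a ratio of 4.64, with a median of 65.8. The span of levels was thus narrower in cultured than in naïve WT cells, a description with no test. Over all 35 members the ratio went from 27.5 to 22.3, with Ndufb4 lowest in both states. The other 13 members (Ndufa12, Ndufa13, Ndufab1, Ndufb2, Ndufb4, Ndufb5, Ndufb6, Ndufb8, Ndufb11, Ndufs1, Ndufs3, Ndufs5 and Ndufs6) had a count that was not whole in 1 library or more, which means that reads were shared with another gene, and their levels are less certain. Ndufs3 has 2 entries in the annotation (ENSMUSG00000005510.9 and ENSMUSG00000111727.1) that held equal counts in all 16 libraries, and these were summed.

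Culture under Treg conditions went with higher mRNA of most complex I subunits. In WT cells 28 of the 35 members were higher in Treg than in Tn and 2 were lower (edgeR quasi-likelihood test, adjusted p under 0.05), while 5 did not pass the test. Of all 13672 genes tested, 76.9% were called, 37.7% as higher and 39.2% as lower. The median log2 fold change of the members was 0.71 (1.64-fold), against -0.05 for all genes tested. Over the 22 members with whole counts in every library it was 0.61. The 4 libraries of each state did not overlap for 28 members that were higher and 3 that were lower, beside 37.2% and 35.7% of all genes tested. The 35 members together summed to 1442, 1420, 1485 and 1402 CPM in the 4 WT Tn libraries and to 2169, 2189, 2145 and 2221 CPM in the 4 WT Treg libraries. In bulk RNA, a change in the share of cells of a type and a change in RNA per cell cannot be told apart.

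**Figure D1:**
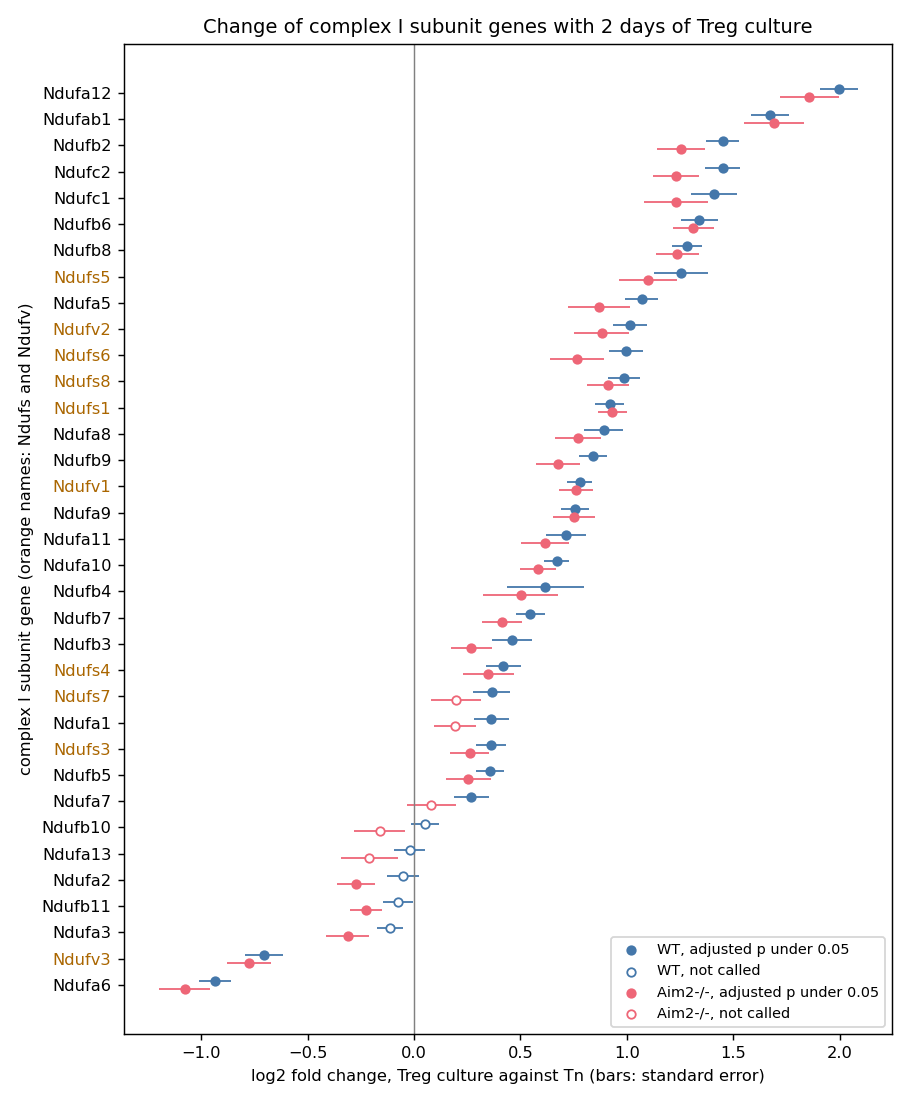
Log2 fold change of each of the 35 members between Treg culture and Tn (x axis) with its standard error, in WT (blue) and Aim2-/- cells (red); filled points passed the test (adjusted p under 0.05), open points did not, and orange names mark Ndufs and Ndufv genes. Ndufa12 stands highest, at 2.00 in WT, and Ndufv3 and Ndufa6 stand apart at the lower end, at -0.70 and -0.93.

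The largest rise was in Ndufa12, a matrix-arm subunit that is added late in assembly (ENSMUSG00000020022.16, chr10:94198720-94221443, GRCm38). It read 18.8, 15.3, 18.3 and 18.8 CPM in the WT Tn libraries and 72.0, 76.1, 71.4 and 70.7 CPM in the WT Treg libraries. The lowest Treg library was thus far above the highest Tn library, and the log2 fold change was 2.00 ± 0.09 (SE, as for all log2 fold changes here; adjusted p = 3.4e-08). Ndufab1, the mitochondrial acyl carrier protein, which also serves fatty acid and iron-sulphur cluster synthesis, rose from 19.1, 18.9, 20.4 and 20.3 CPM to 59.3, 57.8, 69.5 and 69.8 CPM, a log2 fold change of 1.67 ± 0.09 (adjusted p = 1.2e-07). Its Treg libraries fell into a lower pair and a higher pair, all well above the Tn libraries. Ndufb2, a membrane-arm subunit, read 16.1, 17.2, 16.7 and 15.5 CPM in WT Tn and 44.2, 47.9, 46.6 and 44.3 CPM in WT Treg, a log2 fold change of 1.45 ± 0.08 (adjusted p = 1.1e-07).

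The next 3 were also small membrane-arm subunits. Ndufc2 read 13.8, 15.6, 16.3 and 14.9 CPM in WT Tn and 42.9, 41.6, 40.3 and 44.3 CPM in WT Treg, with a log2 fold change of 1.45 ± 0.08 (adjusted p = 1.9e-07). Ndufc1, the member with the lowest level per kilobase in naïve WT cells among those with whole counts, went from 7.77, 7.91, 9.67 and 9.37 CPM to 22.2, 22.4, 25.3 and 24.6 CPM (1.41 ± 0.11, adjusted p = 1.4e-06). Ndufb6 went from 16.6, 15.8, 15.5 and 14.0 CPM to 38.1, 38.5, 40.2 and 43.4 CPM (1.34 ± 0.09, adjusted p = 4.6e-07). In none of these 3 did a Tn library reach the level of a Treg library. The 6 largest rises therefore took in 1 matrix-arm gene, 4 membrane-arm genes and Ndufab1. None was of the catalytic core, to which only 6 of the 35 members belong. All 6 were called in each of 21 other settings tried, with adjusted p at or under 4.9e-05. Ndufa12, Ndufab1, Ndufb2 and Ndufb6 are among the members whose counts were not all whole and whose levels are less certain.

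All 6 core members rose in WT cells, by log2 fold changes between 0.36 and 1.01. Ndufv1, which binds NADH and the flavin, read 62.8, 62.3, 65.9 and 59.4 CPM in WT Tn and 109.6, 111, 109.8 and 108 CPM in WT Treg (0.78 ± 0.06, adjusted p = 1.7e-06). Ndufs1, the largest core subunit and holder of several iron-sulphur clusters, read 69.1, 64.7, 77.2 and 71.3 CPM and then 139, 139, 135 and 133 CPM (0.92 ± 0.07, adjusted p = 1.4e-06). Both groups of libraries were tight and well apart for these genes. Ndufv2, which carries an iron-sulphur cluster next to the flavin, rose by 1.01 ± 0.08 and Ndufs8, which carries clusters further along the chain, by 0.99 ± 0.08. The rise was smaller in Ndufs7, at 0.36 ± 0.09 (adjusted p = 0.0034), and in Ndufs3, at 0.36 ± 0.07 (adjusted p = 9.6e-04).

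The other supernumerary genes that rose in WT cells did so over a wide range. In the matrix arm Ndufa5 rose by 1.07 ± 0.08 and Ndufs6, a zinc-binding subunit added late in assembly, by 1.00 ± 0.08. Ndufa9, which binds NADPH beside the ubiquinone site, rose by 0.76 ± 0.07. Lower values were seen in Ndufs4, whose loss in mice causes a disease like Leigh syndrome, at 0.42 ± 0.08, and in Ndufa7, at 0.27 ± 0.08. In the membrane arm Ndufb8 rose by 1.28 ± 0.07 and Ndufs5 by 1.25 ± 0.13. Ndufa8, Ndufb9, Ndufa11, Ndufa10, Ndufb4 and Ndufb7 followed at 0.89, 0.84, 0.71, 0.67, 0.62 and 0.55. Ndufb3, Ndufa1 and Ndufb5 showed the smallest rises that passed in this arm, at 0.46, 0.36 and 0.36. Ndufb4 had the lowest CPM of the members and the largest standard error, 0.18. It read 3.00, 5.26, 4.43 and 4.33 CPM in WT Tn and 5.90, 6.69, 7.39 and 6.67 CPM in WT Treg. Its count was not whole in 16 libraries, so its level is less certain. With the offset for GC content and length described below, Ndufs4 no longer passed in either genotype and Ndufb10 passed in WT cells.

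Against this direction, 2 supernumerary matrix-arm genes fell in WT cells. Ndufa6, a small protein of the LYR family that binds the acyl carrier protein within the complex (ENSMUSG00000022450.5, chr15:82350140-82354322, GRCm38), read 74.8, 69.8, 74.9 and 65.2 CPM in WT Tn and 37.0, 36.1, 39.9 and 39.3 CPM in WT Treg. Every Treg library was below every Tn library, and the log2 fold change was -0.93 ± 0.08 (adjusted p = 2.1e-06). It moved opposite to Ndufab1, the acyl carrier protein itself. Ndufv3, a supernumerary subunit of the NADH-oxidising tip, read 64.9, 71.2, 62.4 and 60.01 CPM in WT Tn and 44.5, 39.7, 41.6 and 36.3 CPM in WT Treg, a log2 fold change of -0.70 ± 0.09 (adjusted p = 5.3e-05). Its partners at the tip, Ndufv1 and Ndufv2, were among the genes that rose.

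The 5 members that did not pass the test in WT cells were Ndufa3, Ndufb11, Ndufa2, Ndufa13 and Ndufb10, with log2 fold changes between -0.11 and 0.05. Ndufa3, a membrane-arm subunit, read 56.1, 57.3, 59.1 and 56.0 CPM in WT Tn and 53.7, 54.8, 53.5 and 53.8 CPM in WT Treg, so that the groups did not overlap, but its log2 fold change of -0.11 ± 0.06 gave an adjusted p of 0.11. Ndufb11, another membrane-arm subunit, read 94.5, 91.4, 83.6 and 85.1 CPM and 87.4, 88.2, 88.6 and 79.9 CPM, with overlapping groups (-0.08 ± 0.07, adjusted p = 0.35). All 5 were at 51.3 CPM or more in every WT Tn library. So were Ndufa9, Ndufa10, Ndufs1 and Ndufv1, which rose, and Ndufa6 and Ndufv3, which fell. The sign of Ndufa13 (-0.02) turned with DESeq2, RLE size factors or library totals, and those of Ndufa2, Ndufa3 and Ndufa13 with the offset for GC content and length, with none of them called.

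**Figure D2:**
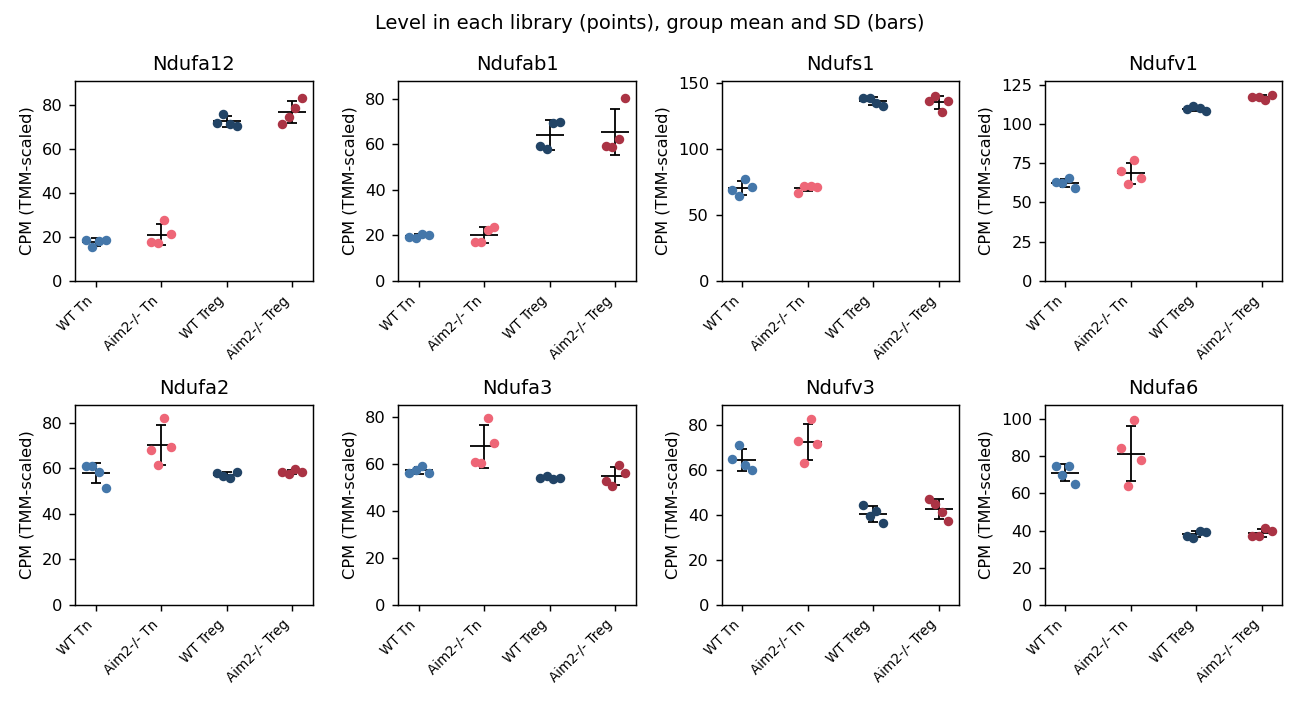
CPM of 8 members in each of the 16 libraries (points), with the mean and SD of each group of 4 libraries (bars). Ndufa12, Ndufab1, Ndufs1 and Ndufv1 are higher in both Treg groups, Ndufa6 and Ndufv3 are lower, and Ndufa2 and Ndufa3 stay within 51.3 to 61.1 CPM in all 8 WT libraries.

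The classes of subunit lay close to each other in their medians. Of the 10 Ndufs and Ndufv genes 9 rose and 1 fell in WT cells (median 0.85 on the log2 scale), while 19 of the other 25 rose and 1 fell (median 0.67). The 6 core genes had a median of 0.85 and the 29 supernumerary genes 0.67. By arm, 12 of 15 matrix-arm genes rose and 2 fell (median 0.76), and 15 of 19 membrane-arm genes rose and none fell (median 0.67). The ranges overlapped in full for the core genes, whose values lay between 0.36 and 1.01, within the range of the supernumerary genes from -0.93 to 2.00. No test of the difference between classes was made.

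In Aim2-/- cells 25 members were higher in Treg than in Tn, 5 were lower and 5 did not pass the test. Of 13710 genes tested 79.3% were called, 39.1% as higher and 40.2% as lower, and the median log2 fold change was 0.62 for the members and -0.04 for all genes. Over the 22 members with whole counts in every library it was 0.50. Libraries of the 2 states did not overlap for 21 members that were higher and 5 that were lower, beside 37.3% and 37.5% of all genes. The members summed to 1558, 1445, 1956 and 1632 CPM in Aim2-/- Tn and to 2172, 2224, 2326 and 2350 CPM in Aim2-/- Treg. Without Aim2-/- Tn replicate 3, a library that stood apart (given with the genotype comparison), the same counts of 25 higher and 5 lower were found, with a median of 0.67. Among members 25 were called higher in both genotypes and 2, Ndufa6 and Ndufv3, lower in both. Of the 10 Ndufs and Ndufv genes 8 rose and 1 fell (median 0.76), and of the other 25 members 17 rose and 4 fell (median 0.58).

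Ndufa12 again rose most, from 17.8, 17.4, 27.7 and 21.4 CPM to 71.3, 74.6, 78.5 and 83.2 CPM in Aim2-/- cells (1.86 ± 0.14, adjusted p = 2.2e-07), with Aim2-/- Tn replicate 3 the highest of the Tn libraries. Ndufab1 rose from 17.1, 17.0, 22.3 and 23.9 CPM to 59.5, 59.0, 62.5 and 80.5 CPM (1.69 ± 0.14, adjusted p = 6.2e-07), with replicate 4 standing above the other Treg libraries. Ndufb6 rose from 15.8, 15.5, 19.4 and 16.8 CPM to 40.6, 41.2, 41.6 and 45.5 CPM (1.31 ± 0.10, adjusted p = 1.7e-07). These genes were also among the 6 largest rises in WT cells. Ndufb2 went from 16.8, 19.3, 22.4 and 17.7 CPM to 45.6, 44.999, 51.7 and 40.7 CPM (1.25 ± 0.11) and Ndufc1 from 8.47, 7.94, 13.1 and 10.6 CPM to 23.3, 21.9, 23.6 and 25.8 CPM (1.23 ± 0.15). Ndufb8, a membrane-arm subunit often used as a protein marker of assembled complex I, went from 45.7, 40.4, 57.3 and 45.2 CPM to 107, 112, 113 and 116 CPM (1.24 ± 0.10, adjusted p = 5.0e-07), a gain close to the 1.28 ± 0.07 it showed in WT cells.

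The genes that fell in Aim2-/- cells were Ndufa6, Ndufv3, Ndufa3, Ndufa2 and Ndufb11. Ndufa6 read 84.3, 63.8, 99.5 and 78.2 CPM in Tn and 37.1, 37.1, 41.2 and 39.97 CPM in Treg (-1.08 ± 0.12, adjusted p = 6.6e-06), and Ndufv3 73.2, 63.2, 82.6 and 71.5 CPM and 47.2, 45.1, 41.1 and 37.4 CPM (-0.78 ± 0.10, adjusted p = 2.9e-05). In both genes every Treg library was below every Tn library. Ndufa3 read 60.6, 60.5, 79.6 and 68.9 CPM and then 52.5, 50.7, 59.3 and 56.1 CPM (-0.31 ± 0.10, adjusted p = 0.014), and Ndufa2, a matrix-arm subunit with a thioredoxin-like fold, 68.0, 61.6, 82.2 and 69.3 CPM and then 58.3, 57.6, 59.7 and 58.6 CPM (-0.27 ± 0.09, adjusted p = 0.015). These smaller falls did not hold throughout. With an offset for GC content and transcript length Ndufa3 and Ndufa2 were no longer called, at -0.02 and -0.03, while Ndufa1, Ndufs7 and Ndufa7 were called as higher, at 0.55, 0.61 and 0.55. The members then counted 27 higher and 3 lower with a median of 0.71. Leaving out Aim2-/- Treg replicate 1, 2, 3 or 4 ended the call of Ndufa2 and Ndufb11, and 29, 27, 27 and 27 members were then called in all. Ndufs3, Ndufs4, Ndufb3, Ndufb4 and Ndufb5 were not called without Aim2-/- Tn replicate 1, 2 or 4, when 25, 26 and 25 members were called, and Ndufb5 was also lost without Aim2-/- Treg replicate 3 or 4. Ndufa3 was lost without Aim2-/- Treg replicate 1 or 2. Ndufa13, Ndufb10, Ndufa7, Ndufs7 and Ndufa1 did not pass, at values from -0.21 to 0.20. Ndufa1 and Ndufs7 passed with the split of replicates 1 and 2 against 3 and 4 as a covariate, or without Aim2-/- Treg replicate 1, and Ndufa13 passed without Aim2-/- Tn replicate 2.

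Since the members moved largely together with culture, the letters around their transcription starts were read from RefSeq (GRCm38.p6), from 250 bases before to 50 bases after the start, in which 32 of the 35 members had an entry. Each of 4 motifs was searched on both strands as an exact string of letters, so variants of a motif were not counted. The letters AAGATGGCG, a core of the YY1 motif, were found in 5 of the 32 member genes (15.6%) and in 1.64% of 27025 genes with an entry. In all 5 members the ATG inside these letters is the annotated start codon. The 27025 genes were not limited to those with a start codon inside the window, so the 2 shares come from unlike sets. The 5 windows of 30 bases follow, 5′ to 3′ on the gene's strand with the letters in capitals, because the same 9 letters sit at the start of translation of each.
Ndufc1: cctgcggaacAAGATGGCGccgtccgtagt
Ndufa9: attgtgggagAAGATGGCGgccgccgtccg
Ndufs7: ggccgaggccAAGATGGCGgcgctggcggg
Ndufs6: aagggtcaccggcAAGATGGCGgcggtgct
Ndufs4: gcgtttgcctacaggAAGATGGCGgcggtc
They lie at chr3:51408914-51408943, minus strand, chr6:126849096-126849125, minus strand, chr10:80249463-80249492, plus strand, chr13:73328433-73328462, minus strand and chr13:114388045-114388074, minus strand, with the first capital 23, 30, 25, 34 and 36 bases into the transcript, counted from 1. The genes that carry these letters rose with culture in WT cells by log2 fold changes from 0.36 in Ndufs7 to 1.41 in Ndufc1, with Ndufs4 at 0.42, Ndufa9 at 0.76 and Ndufs6 at 1.00.

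The exact letters GCGCATGCG, a form of the motif of the respiratory regulator NRF1, were found in 2 member genes (6.25%) and in 1.95% of all genes. Other forms of this motif were not searched, so these shares do not count every possible NRF1 site. Both stretches are shown, with the matched letters in capitals, read on either strand.
Ndufa8: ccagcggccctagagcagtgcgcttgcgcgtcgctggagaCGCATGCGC
Ndufa11: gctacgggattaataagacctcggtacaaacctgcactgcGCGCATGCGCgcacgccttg
The first lies at chr2:36049339-36049387, minus strand, and the second at chr17:56717662-56717721, plus strand, where the letters match on both strands with an overlap. Ndufa8 rose by 0.89 and Ndufa11 by 0.71 on the log2 scale in WT cells. CCGGAAGT, a site of ETS factors, was found in 1 member gene, Ndufs3 (3.12%, against 4.31% of all genes), and CACGTG, an E-box, in 2, Ndufa7 and Ndufv1 (6.25%, against 8.09%). The gene with the largest rise and the gene with the largest fall held none of the 4 exact strings of letters, and variants of them were not searched. Their 120 bases before the RefSeq start are shown for that reason.
Ndufa12: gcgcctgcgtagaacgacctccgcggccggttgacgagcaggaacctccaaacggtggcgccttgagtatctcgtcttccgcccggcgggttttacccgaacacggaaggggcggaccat
Ndufa6: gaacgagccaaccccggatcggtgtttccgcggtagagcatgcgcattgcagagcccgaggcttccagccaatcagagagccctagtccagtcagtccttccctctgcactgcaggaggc
They lie at chr10:94198915-94199034, plus strand, and chr15:82354292-82354411, minus strand. The first lies inside the gene as annotated above for Ndufa12 (chr10:94198720-94221443). Bases before the annotated start of Ndufa12 were not searched. The second lies partly inside the gene as annotated above for Ndufa6 (chr15:82350140-82354322). A match or its lack describes these letters in these windows only.

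Between genotypes no member was called in Tn cells. All 35 had a log2 fold change above 0 in Aim2-/- against WT Tn, as did 52.7% of the 13438 genes tested, with a median of 0.22 (1.16-fold) against 0.01 for all genes. With RLE size factors, library totals or DESeq2, 34 were above 0. The count called was 0 by edgeR, beside 0.231% of all genes, with a smallest adjusted p of 0.41, 0 by DESeq2 and 0 by limma-voom. At an unadjusted p under 0.05 edgeR counted 12 members, beside 10.3% of all genes. The groups did not overlap for 3 members, Ndufa2, Ndufa3 and Ndufb7, beside 3.36% of all genes higher in this way. The changes lay between 0.00 (Ndufs1) and 0.34 (Ndufa5), with a median of 0.21 for the Ndufs and Ndufv genes and 0.23 for the others.

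The members with the smallest unadjusted p were all supernumerary, as are 29 of all 35 members. Ndufa1, an X-linked membrane-arm subunit, read 25.3, 24.8, 28.6 and 24.5 CPM in WT Tn and 28.5, 28.9, 35.9 and 33.8 CPM in Aim2-/- Tn (0.31 ± 0.10, unadjusted p = 0.013, adjusted p = 0.41). Ndufa2 read 60.8, 61.1, 58.5 and 51.3 CPM and 68.0, 61.6, 82.2 and 69.3 CPM (0.28 ± 0.10, adjusted p = 0.42). The lowest Aim2-/- library stood just above the highest WT library. Ndufb3 read 23.8, 25.9, 29.9 and 28.8 CPM and 29.8, 30.9, 38.2 and 34.1 CPM (0.30 ± 0.11), where the lowest Aim2-/- library lay just under the highest WT library. Ndufb7, a subunit on the intermembrane-space side of the membrane arm, read 50.1, 48.7, 51.8 and 47.7 CPM and 54.0, 54.3, 67.8 and 56.5 CPM (0.23 ± 0.09). Ndufc2 read 13.8, 15.6, 16.3 and 14.9 CPM and 18.4, 15.97, 21.9 and 17.95 CPM (0.30 ± 0.12), and Ndufb9, another LYR family subunit, 36.5, 37.3, 38.2 and 36.1 CPM and 43.7, 36.7, 51.8 and 44.6 CPM (0.26 ± 0.10). In all 6 the highest value belonged to Aim2-/- Tn replicate 3, and the adjusted p over 21 other settings ran from 0.060 to 0.95.

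**Figure D3:**
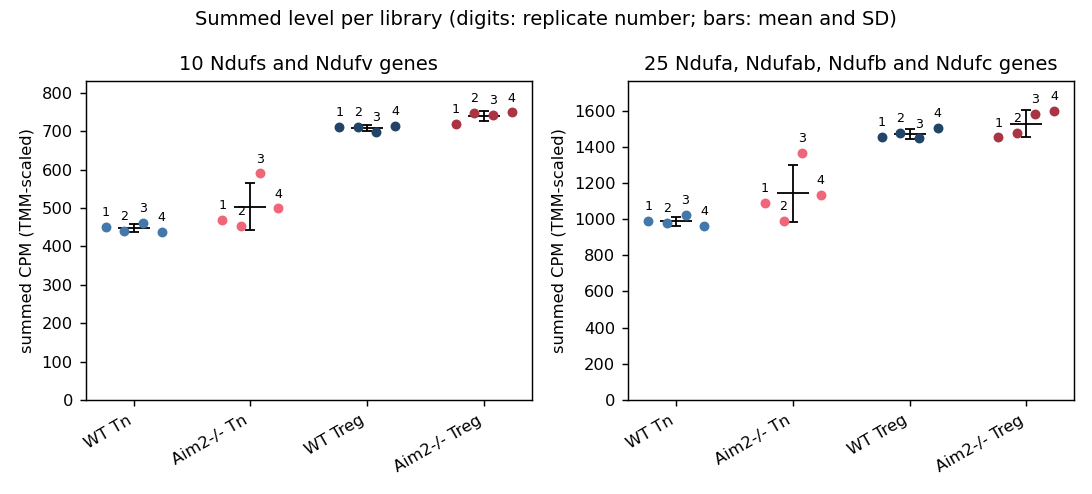
Summed CPM of the 10 Ndufs and Ndufv genes (left) and of the other 25 members (right) in each library, with replicate numbers beside the points and bars for the mean and SD of 4 libraries. Aim2-/- Tn replicate 3 stands above the other Tn libraries in both panels, and all Treg libraries are above all Tn libraries.

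A single library carried much of this difference. The 35 members summed to 1956 CPM in Aim2-/- Tn replicate 3, against 1445 to 1632 CPM in the other Aim2-/- Tn libraries and 1402 to 1485 CPM in WT Tn. Without that library the median over the members was 0.11, with 33 above 0 and 1 with an unadjusted p under 0.05. The same library stood apart in transcript length. The members are short, with a median transcript of 870.5 bases against 2863 bases for 11370 protein-coding genes with a count in every library. The median deviation of 2052 genes under 1000 bases minus that of 3579 genes over 4000 bases, members left out, was -0.07, -0.19, -0.08 and -0.11 on the log2 scale in the 4 WT Tn libraries and 0.02, -0.03, 0.41 and 0.14 in Aim2-/- Tn. The members' own median deviation was -0.09, -0.11, -0.05 and -0.14 in WT Tn and -0.0040, -0.09, 0.37 and 0.10 in Aim2-/- Tn. With an offset for GC content and length in each library the members' median difference was 0.07, with 31 above 0, none called and none at an unadjusted p under 0.05. The offset was fitted over all genes tested, members included, so it also takes out any change that short genes share. What lies behind the length difference was not tested. With replicates 1 and 2 only the median was 0.09, with 1 member at an unadjusted p under 0.05, and with replicates 3 and 4 only it was 0.33, with 22. The 5 erythroid markers, none of them at 0 in Tn cells, summed to between 1.23 and 3.97 CPM in WT Tn and between 5.13 and 7.94 CPM in Aim2-/- Tn. Of the 4 that were tested none passed by edgeR, with 3 at an unadjusted p under 0.05. The 4 B cell markers summed to between 1.07 and 1.56 CPM in WT Tn and between 1.46 and 2.20 CPM in Aim2-/- Tn, with Ms4a1 at 0 throughout. Cd79a, the 1 of them that was tested, stood higher in every Aim2-/- Tn library (0.79 ± 0.26, unadjusted p = 0.011 and adjusted p = 0.40 by edgeR). The 4 myeloid markers, none at 0 in Tn cells, summed to between 3.56 and 8.21 CPM and between 6.22 and 7.84 CPM. Of the 3 that were tested none had an unadjusted p under 0.05, and Lyz2 did not overlap between the groups (1.01 ± 0.50, adjusted p = 0.52 by edgeR). The part of these cell types in the result was not tested.

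**Figure D4:**
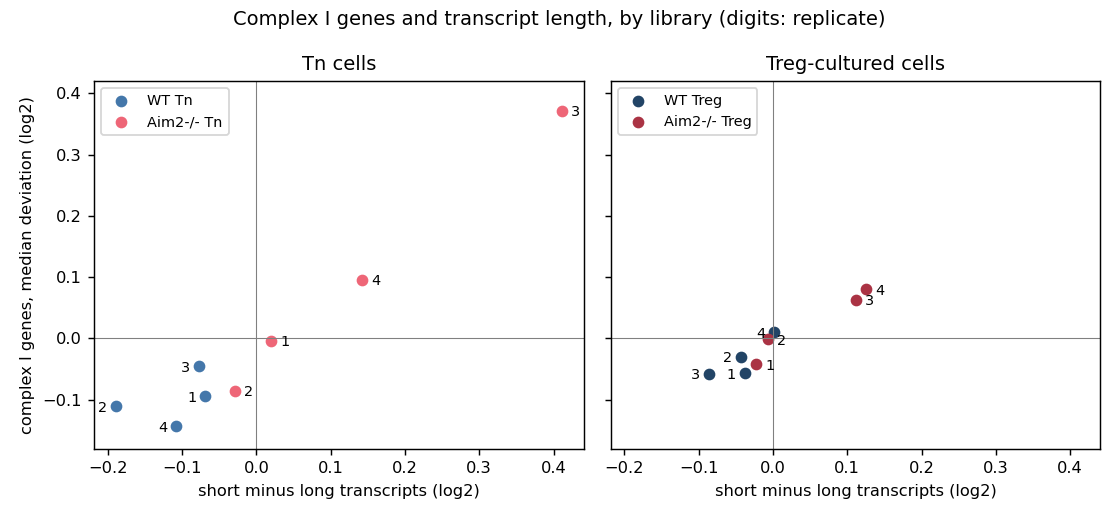
Median deviation of the complex I genes from their mean (y axis, log2) against the deviation of short minus long transcripts of other genes (x axis, log2), for each Tn library (left) and each Treg library (right), with replicate numbers. Aim2-/- Tn replicate 3 lies at 0.41 and 0.37, apart from the other Tn libraries, which lie at or under 0.14 and 0.10.

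In Treg cells, too, no member was called between genotypes. The median log2 fold change was 0.06, against 0.00046 for all genes, with 32 of 35 above 0 (28 with library totals) beside 50.2% of 13218 genes. The count called was 0 by edgeR, beside 0.219% of all genes, with none at an unadjusted p under 0.05 (2.31% of all genes), and DESeq2 called 0, with 2 at an unadjusted p under 0.05. Ndufv1 was the member whose groups did not overlap (1.30% of all genes were higher in this way), at 109.6, 111, 109.8 and 108 CPM in WT Treg and 117, 117, 115 and 118 CPM in Aim2-/- Treg. Its means were 109.6 ± 1.27 and 117 ± 1.24 CPM (SD, n = 4), a log2 fold change of 0.09 ± 0.04 in the fit across all genes by edgeR (adjusted p = 0.999).

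The others with the smallest unadjusted p lay close to it in size. Ndufb8 read 107, 107, 100.1 and 102 CPM in WT Treg and 107, 112, 113 and 116 CPM in Aim2-/- Treg (0.10 ± 0.05). Ndufs5, a membrane-arm subunit despite its name, read 42.9, 41.6, 41.9 and 45.4 CPM and 42.6, 46.2, 48.8 and 49.1 CPM (0.12 ± 0.06), and Ndufa1 33.8, 35.1, 32.3 and 34.4 CPM and 34.2, 36.0, 36.5 and 39.8 CPM (0.11 ± 0.06). Of the core genes, Ndufs3 read 75.7, 82.9, 75.7 and 79.5 CPM and 78.6, 89.2, 84.3 and 82.5 CPM (0.09 ± 0.06) and Ndufs8 68.0, 65.7, 58.9 and 64.3 CPM and 65.3, 68.6, 71.2 and 69.5 CPM (0.09 ± 0.06). In all 5 at least 1 Aim2-/- library was within the WT range. The length difference was -0.04, -0.04, -0.09 and 0.00 in WT Treg and -0.02, -0.01, 0.11 and 0.13 in Aim2-/- Treg, and with the offset the members' median was 0.03, with 26 above 0.

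**Figure D5:**
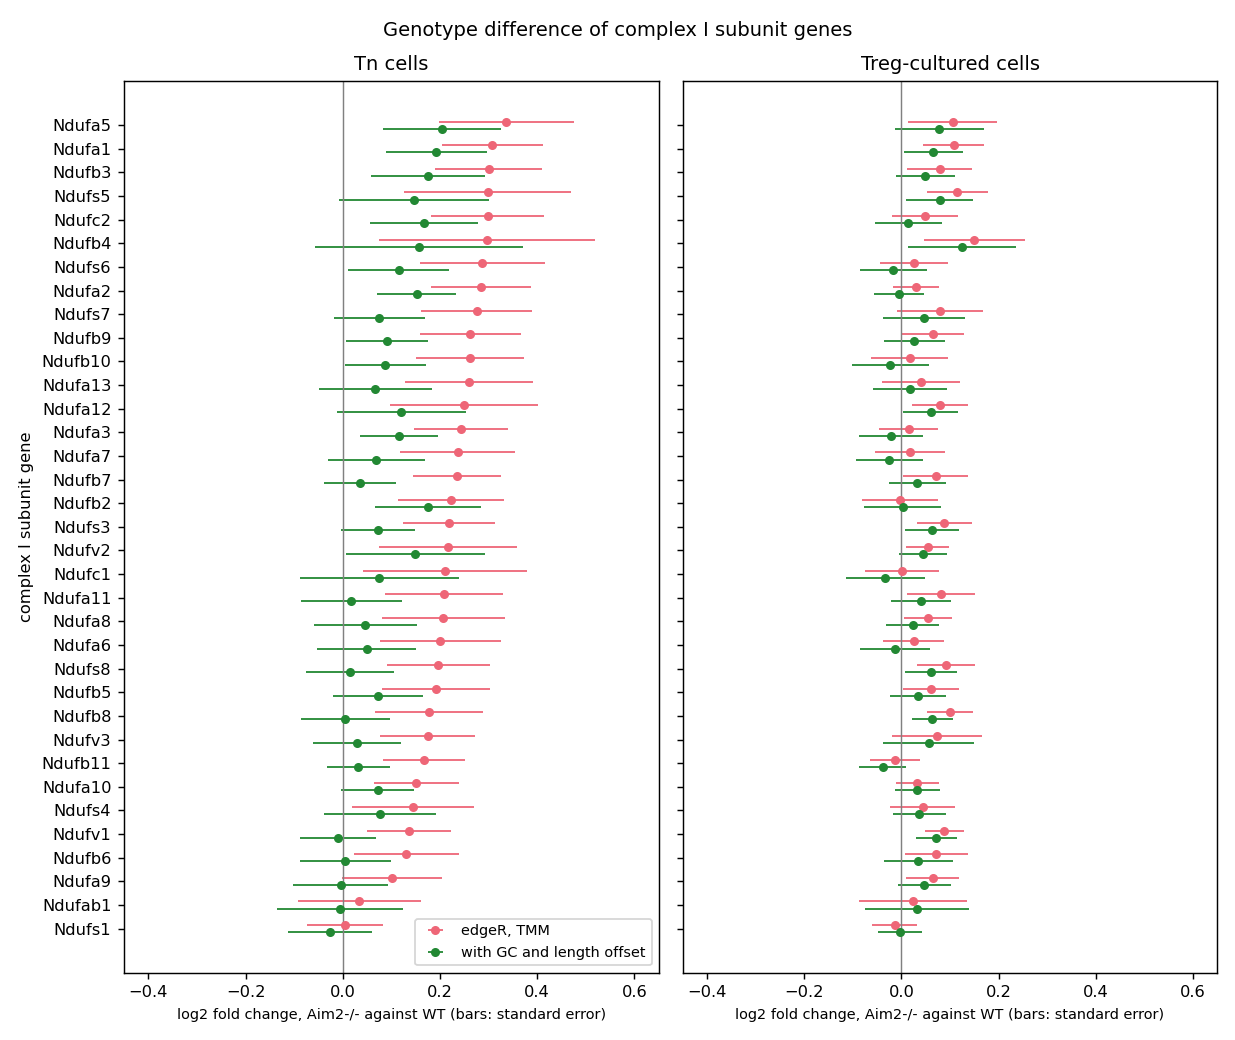
Log2 fold change of each member between Aim2-/- and WT (x axis) with its standard error, in Tn (left) and Treg cells (right), from edgeR with TMM scaling (red) and with an offset for GC content and transcript length (green). In Tn cells the median moves from 0.22 to 0.07 with the offset, and no point passed the test in either panel or setting.

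The difference between the genotypes in the change with culture was tested as an interaction on all 16 libraries. No member was called by edgeR or DESeq2, beside 0.0205% of 14666 genes by edgeR, and no member had an unadjusted p under 0.05 by edgeR (3.49% of all genes). All 35 values were below 0 (34 with RLE size factors or DESeq2), as were 50.1% of all genes, with a median of -0.16. This comparison shares its libraries with those above. The smallest unadjusted p values belonged to Ndufa2 (-0.24 ± 0.12, unadjusted p = 0.051 in the edgeR fit), Ndufa3 (-0.22 ± 0.12), Ndufc2 (-0.24 ± 0.13) and Ndufb11 (-0.17 ± 0.10). For Ndufa2, the level of Aim2-/- Tn replicate 3, 82.2 CPM, stood above the 51.3 to 69.3 CPM of all other libraries. Without that library the median over the members was -0.05, with 7 above 0, and with the offset it was -0.05, with 9 above 0. With replicates 1 and 2 only it was -0.08, and with replicates 3 and 4 only -0.22.

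Other genes of the complex moved with the members in part. Of 20 assembly factors listed, proteins that build the complex and are not part of it, 17 were found and 13 of them rose in WT cells, none fell, and the median was 0.75. In Aim2-/- cells 13 rose and none fell. Of all genes tested, 37.7% and 39.1% rose in the same comparisons, and 39.2% and 40.2% fell. Ndufaf2, which holds the place of its relative Ndufa12 during assembly, rose most, from 4.11, 3.44, 4.81 and 4.57 CPM to 16.8, 17.0, 18.4 and 18.8 CPM in WT cells (2.04 ± 0.13, adjusted p = 3.8e-07). Ndufa12 was likewise the member with the largest rise. Ndufaf6 went from 3.56, 3.87, 3.50 and 3.37 CPM to 10.7, 11.3, 10.2 and 12.9 CPM (1.62 ± 0.13) and Nubpl, an iron-sulphur protein needed for assembly, from 3.49, 2.17, 3.42 and 3.10 CPM to 8.26, 8.25, 8.18 and 8.93 CPM (1.43 ± 0.17). At the lower end and not called were Ndufaf5, which modifies Ndufs7, at 0.01 ± 0.12, Ndufaf3, at -0.08 ± 0.16, and Tmem126b, a factor of membrane-arm assembly, at -0.09 ± 0.27. Tmem126b varied widely among WT Tn libraries, at 8.01, 5.61, 15.6 and 12.1 CPM.

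The 7 subunits encoded in mitochondrial DNA did not move as a group. In WT cells mt-Nd1 rose from 998, 664, 927 and 708 CPM to 1399, 1176, 1458 and 1299 CPM (0.66 ± 0.14, adjusted p = 0.0014) and mt-Nd3 from 25.1, 18.7, 48.9 and 40.5 CPM to 58.2, 71.3, 59.1 and 78.5 CPM (0.97 ± 0.27, adjusted p = 0.009). By contrast, mt-Nd4 fell (-0.38 ± 0.15, adjusted p = 0.042) and mt-Nd6 fell (-0.44 ± 0.14, adjusted p = 0.015), with libraries of the 2 states overlapping in both. The values of mt-Nd2, mt-Nd4l and mt-Nd5 were 0.17, 0.22 and -0.07 and did not pass. In Aim2-/- cells mt-Nd1 rose (0.58 ± 0.18) and mt-Nd6 fell (-0.59 ± 0.18). These levels are less certain: the libraries were made from polyadenylated RNA, mitochondrial genes overlap or lie on opposite strands (mt-Nd6), and mt-Nd3 had a count that was not whole in 15 libraries. Within Aim2-/- Tn alone mt-Nd1 lay between 769 and 1287 CPM.

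The subunits of respiratory complexes II to V mostly rose with culture as well. Of 39 such genes 36 rose in WT cells and 1 fell, with a median of 0.81, and in Aim2-/- cells 34 rose and 1 fell, with a median of 0.76. Of all genes, 37.7% rose and 39.2% fell in WT cells and 39.1% and 40.2% in Aim2-/- cells. The gene that fell in both was Uqcrh, the hinge protein of complex III, at -0.48 ± 0.07 in WT cells (adjusted p = 1.6e-04). No assembly factor, mitochondrially encoded subunit or gene of complexes II to V was called between genotypes by edgeR in either state, with medians of 0.18, 0.16 and 0.17 in Tn and 0.08, 0.08 and 0.06 in Treg. At an unadjusted p under 0.05 edgeR counted 2 of 17, 0 of 7 and 6 of 39 of these genes in Tn, beside 10.3% of all genes, and none in Treg, beside 2.31%. The medians of the complex I members with culture were 0.71 and 0.62, and no test of the difference from complexes II to V was made.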

How the data were processed

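The 35 genes, the other lists and the tests were chosen with earlier results of these data known. RNA of 16 libraries was sequenced by the authors from stranded, poly(A)-selected libraries with single-end reads, mapped to GRCm38 with STAR and quantified with RSEM on GENCODE m15 (versions and strand setting not given in the sources used here). They deposited the expected count of each of 53090 genes in each library, neither normalized nor filtered, without molecular identifiers. Standard errors and p-values include the spread between libraries. Groups and replicate numbers came from the deposited titles and descriptions. The names of the deposited tables number some libraries otherwise. Replicates differed beyond counting noise (chi-square per gene 10.3 to 94.2), partly as replicates 1 and 2 against 3 and 4.

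Rounding gave whole-number counts. Entries with 1 symbol were summed for the members and the other listed genes only. A gene was tested where 4 or more libraries of a comparison held 10 counts or more, with edgeR 4.0.16 (robust quasi-likelihood F test, two-sided, TMM) in R 4.3.3, with Benjamini-Hochberg adjustment over all genes and a threshold of 0.05. Each genotype or culture comparison used 8 libraries, and the interaction used 16. No pairing was used. The test was checked on simulated data. Alternatives were DESeq2 1.42.0, limma-voom 3.58.1 (the authors' method), RLE size factors, library totals, no or a stricter filter, all libraries in one fit, a replicate block, an offset for GC content and transcript length (natural spline, 5 degrees of freedom per library), leaving out each library and, added after seeing the data, replicates 1 and 2 or 3 and 4 only, or this split as a covariate. Lengths and coordinates came from GENCODE M21 on GRCm38, matched for 52403 genes (98.7%), and promoters from RefSeq (GRCm38.p6). Genes named with the value of every library were, by rule, the 6 largest rises and 4 lowest changes with culture, the 6 smallest p between genotypes and the 4 smallest in the interaction, and, named with values, the mitochondrially encoded subunits and the 3 assembly factors with the largest rise and the 3 with the lowest change in WT culture. Ndufv1, Ndufs1, Ndufb8 and Ndufb4 in WT culture, Ndufa5 between genotypes, Uqcrh and the figure panels were chosen after their values were seen. Some genes are not reported here.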

Additional observations from a re-analysis of the deposited data

Results flagged for a closer look

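In 9 of 140 groups of 4 libraries (35 members in 4 groups), 1 library lay farther from the others than Dixon's critical value for the gap over the range. Chance flags about 1 in 20 groups. In Aim2-/- Tn, replicate 3 was high for Ndufa8, at 52.0 CPM against 36.8 to 39.2 CPM in the others, and for Ndufs6, at 37.9 CPM against 25.5 to 27.0 CPM. This is the library that stood apart in the summed level and in the length difference. Replicate 1 of that group was low for Ndufs1, at 67.0 CPM against 71.5 to 71.8 CPM. In WT Tn, replicate 2 was low for Ndufa12, at 15.3 CPM against 18.3 to 18.8 CPM.

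In WT Treg, replicate 4 stood apart for 3 members, high for Ndufb3 (41.2 CPM against 36.8 to 37.3 CPM) and Ndufs4 (54.5 CPM against 47.6 to 48.3 CPM) and low for Ndufb11 (79.9 CPM against 87.4 to 88.6 CPM). In Aim2-/- Treg, replicate 4 was high for Ndufab1, at 80.5 CPM against 59.0 to 62.5 CPM, and replicate 1 was high for Ndufb4, at 7.85 CPM against 7.24 to 7.31 CPM.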

How the results depend on the processing

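With culture, 30 members were called in WT cells under each leave-one-out fit, and 25 to 30 in Aim2-/- cells. The members' median in WT cells was 0.66 to 0.79 when libraries were left out, 0.75 with DESeq2 and with RLE size factors, 0.76 without a filter, 0.83 with replicates 1 and 2 only and 0.64 with replicates 3 and 4 only (the split of replicates was added after seeing the data). With the offset in WT cells, with or without the block, 3 members changed sign and were not called: Ndufa2, Ndufa13 and Ndufa3, the last at 0.0643 (0.0647 with the block as well). Ndufa13 alone did so with DESeq2, RLE size factors, library totals or no filter, and Ndufb11 did so in a leave-one-out fit, at 0.0047, as did Ndufa2, Ndufa13 and Ndufb10 in others. With the offset in Aim2-/- cells Ndufa13 and Ndufb10 changed sign, and Ndufb10 was called with the block as well. In Aim2-/- culture 32 members were called with the split as a covariate (Ndufa1 and Ndufs7 added) and 24 with replicates 3 and 4 only. Between genotypes in Tn, the genes called numbered 128 with DESeq2, 47 without a filter, 18 with the stricter filter, 64 with all libraries in one fit, 15 and 510 with replicates 1 and 2 or 3 and 4 only, 51 with the split as a covariate and 17 to 28 when libraries were left out. The members' median was 0.0722 with the offset (0.0687 with the block as well), 0.0871 with replicates 1 and 2 only, 0.33 with replicates 3 and 4 only (22 members at an unadjusted p under 0.05) and 0.11 to 0.27 when libraries were left out. With replicates 3 and 4 only, 1 member was called (Ndufa5). In Treg, 52 genes were called with DESeq2, 17 with the stricter filter, 15 and 4 with replicates 1 and 2 or 3 and 4 only and 10 to 17 when libraries were left out, and the members' median was 0.0159 with replicates 1 and 2 only and 0.0935 with replicates 3 and 4 only. In the interaction, 10 genes were called with DESeq2, none with the stricter filter (368 at an unadjusted p under 0.05) and 2 to 5 when libraries were left out, and the members' median was -0.0525 with the offset (-0.0474 with the block as well), -0.0782 and -0.22 with replicates 1 and 2 or 3 and 4 only and -0.20 to -0.0508 when libraries were left out. The cause of these shifts was not tested.

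The replicate block kept 0 members called between genotypes and 30 called in WT culture, and called 31 in Aim2-/- culture (Ndufs7 added). All genes called were then 29 in Tn, 41 in Treg and 2 in the interaction. Between genotypes in Treg, 1104 genes had an unadjusted p under 0.05 by edgeR with the block, against 305 without it. Correlations of same-numbered libraries of the 2 genotypes lay between 0.02 and 0.30 for Tn and between -0.01 and 0.40 for Treg. Those of Tn with Treg libraries of a genotype lay between -0.04 and 0.13. The numbers were not taken as pairs. Not every library correlated best with its own number.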
